A study of Cynoglossus semilaevis with 24 samples.

Results

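A set of 5 regulators of the supporting cells of the gonad was followed in 4 organs of the Chinese tongue sole (Cynoglossus semilaevis), a flatfish with ZW sex determination. The rule that chose them reads gene symbols and product descriptions, though it was written with earlier results of these data known, and 5 of the 22773 entries of the gene table matched. These were amh (identifier ncbi-103376633, anti-Müllerian hormone, listed as muellerian-inhibiting factor), amhr2 (its type 2 receptor), foxl2 (forkhead box L2), sox9 and wt1 (Wilms tumor protein). The RefSeq gene table names the entries of foxl2, sox9 and wt1 foxl2a, sox9a and wt1b. No row carried the symbols gsdf, nr5a1, sox9a or sox9b.

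RNA was sequenced from fish 2 years old, grouped by labelled sex and organ into 8 groups: female and male brain, female and male pituitary, female and male liver, and female and male gonad. No group carried a treatment or an engineered allele. Each group had 3 libraries, and each library was a pool of tissue from 5 fish. Every SD and p-value below therefore describes the spread between pools and not between single fish.

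Sertoli cells of the testis and granulosa cells of the ovary are the somatic cells that enclose and nourish germ cells, and in vertebrates they derive from a shared precursor. AMH is a secreted hormone of the TGF-beta family that these cells release. It binds AMHR2, which acts with type 1 receptors of the BMP family on SMAD proteins. In mammals SOX9 promotes the Sertoli fate and FOXL2 maintains the granulosa fate, while WT1 acts in the early gonad of both sexes; SOX9 is also a gene of glia, cartilage and bile duct cells, and FOXL2 is expressed in the pituitary.

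The total of estimated counts was 10032337 to 15409531 in 23 libraries and 25293744 in female gonad 1. The labelled organs carried their markers: the summed level of 18 oocyte genes was 15000 to 17700 FPKM (fragments per kilobase of gene, scaled to library size) in female gonad and 42 to 60.8 FPKM in male gonad, and 5 genes of spermatocytes and spermatids summed to 403 to 534 FPKM in male gonad and 18.1 to 27.8 FPKM in female gonad. By the test described below, 4 of these 5 genes were called higher in male gonad and 1 in female gonad. Female and male gonad are called ovary and testis below. A few libraries held markers of gonad beyond those of their group. Male brain 1 had 112 FPKM of oocyte genes, against 11.2 to 13.6 FPKM in the other brains. Male pituitary 3 had 26.4 FPKM of 4 germ cell genes, against 0.43 and 0.45 FPKM in the other male pituitaries, and 130 FPKM of oocyte genes. Female pituitary 3 had 86 FPKM of oocyte genes, against 38.1 and 52.3 FPKM.

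In gonad, the ligand, its receptor and sox9 were higher in testis and foxl2 was higher in ovary, while wt1 was not called different. Females were compared with males in each organ with edgeR's quasi-likelihood test on the counts, and a gene was called at an adjusted p (Benjamini-Hochberg over all genes tested in that organ) under 0.05. Of the 5 genes, 4 were called in gonad, where 84.2% of all 16195 genes tested were called. Of these, 3 were higher in testis, against 45.4% of all genes, and 1 was higher in ovary, against 38.8%. A call in gonad is thus the usual state of a gene in these libraries. In bulk tissue, fewer cells of a type and less RNA per cell cannot be told apart.

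The ligand gene amh stood at 2.8, 1.6 and 2.18 FPKM in the 3 ovary libraries and at 20.42, 21 and 25.2 FPKM in the 3 testis libraries. Every testis library lay above every ovary library. The fitted level was 5.7-fold higher in testis (log2 difference, female minus male, -2.51, SE 0.23, edgeR adjusted p = 1.33e-06).

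The receptor gene amhr2 had 1.86, 0.98 and 1.29 FPKM in ovary and 16.46, 19.31 and 18.75 FPKM in testis. The groups did not overlap, and the fitted level was 7.33-fold higher in testis (log2 difference -2.87, SE 0.27, edgeR adjusted p = 1.47e-06). The ratio of amh to amhr2 transcripts was higher in each ovary library than in any testis library. In ovary amh stood at 1.51 to 1.69 times the FPKM of amhr2, and in testis at 1.09 to 1.34 times. The ovary ratios rest on 77, 20 and 29 counts of amhr2, and the difference in ratio was not tested.

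The Sertoli factor gene, sox9, had 0.21, 0.43 and 0.52 FPKM in ovary and 9.28, 10.88 and 8.64 FPKM in testis. Testis libraries were all above ovary libraries, with a fitted fold of 14.9 (log2 difference -3.90, SE 0.32, edgeR adjusted p = 4.92e-07). Only the testis libraries reached 1 FPKM, so sox9 passed the low-value filter through them alone. In a fit without that filter the log2 difference was -3.84 (SE 0.32, edgeR adjusted p = 4.67e-08).

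The granulosa factor gene, foxl2, went the other way, with 8.95, 4.93 and 7.45 FPKM in ovary and 0.35, 1.19 and 0.94 FPKM in testis. No testis library reached the lowest ovary library, and the fitted level was 15.1-fold higher in ovary (log2 difference 3.92, SE 0.41, edgeR adjusted p = 4.48e-06).

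The early gonad factor wt1 had 2.4, 1.36 and 1.9 FPKM in ovary and 2.42, 4.68 and 4.57 FPKM in testis. The groups did not overlap, as in 86.3% of all genes tested, although the highest ovary library and the lowest testis library were almost level, and the mean FPKM was 2.06 times as high in testis. The fitted difference was -0.20 on the log2 scale (SE 0.33, edgeR adjusted p = 0.578), and the p does not show that the levels are equal.

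**Figure D1:**
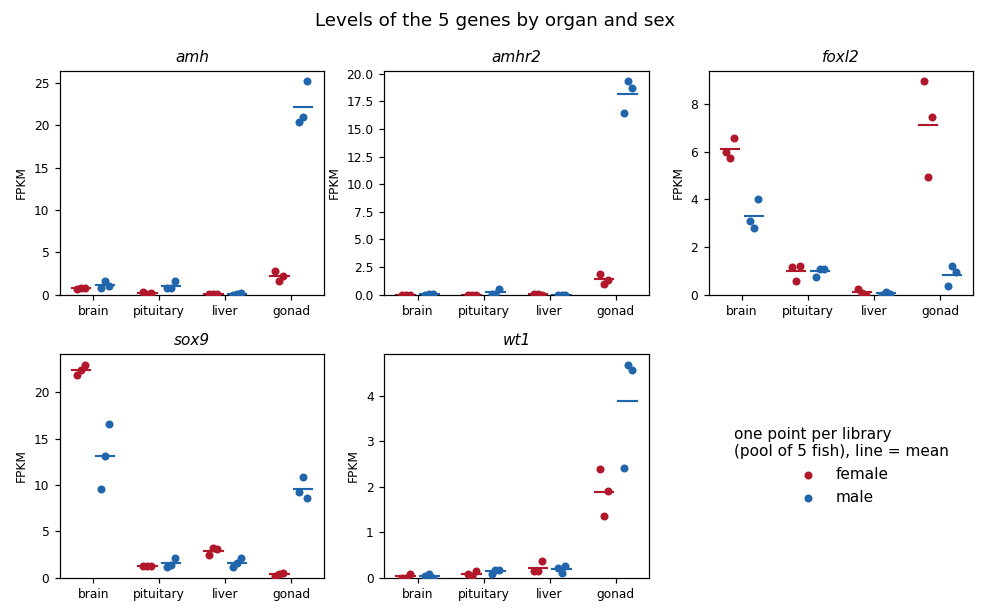
FPKM (linear axes starting at 0, a separate scale in each panel) of the 5 genes in female (red) and male (blue) libraries of each organ, with 1 point per library and a line at the mean of 3. The testis points of amh, amhr2 and sox9 lie above all ovary points, those of foxl2 lie below, and sox9 is highest in brain.

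These folds rest on how the libraries were scaled, since ovary and testis differ in most of their transcripts. With TMM scaling the median log2 difference of all genes in gonad was -0.24, with median-ratio scaling it was -0.08, and with no scaling beyond the count total it was -1.04. Ratios of FPKM means, which carry no such scaling, were 10.1 for amh, 13.2 for amhr2 and 24.8 for sox9 (testis over ovary) and 8.6 for foxl2 (ovary over testis). Without scaling, the fitted log2 differences were -3.32 for amh, -3.69 for amhr2, -4.70 for sox9 and 3.10 for foxl2, and all 4 were still called in the same direction. For wt1 the unscaled difference was -1.03 and was called (edgeR adjusted p = 0.015), as it was with limma on log2(FPKM + 1) (-0.74, adjusted p = 0.0127) and on log2(FPKM + 0.1) (-0.98, adjusted p = 0.0151). Relative to the median of all genes, wt1 was therefore close to the middle under TMM and without scaling.

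**Figure D2:**
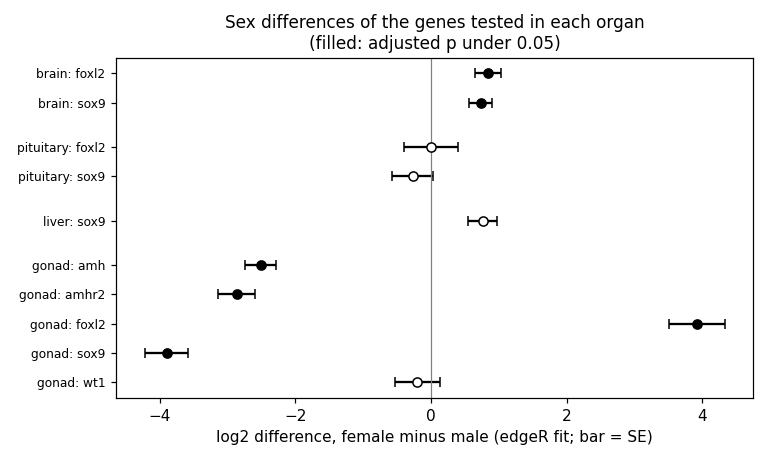
Fitted log2 difference, female minus male, of each gene that passed the low-value filter of an organ, with its SE. Filled points passed the adjusted threshold of 0.05; in gonad foxl2 lies at 3.92 and amh, amhr2 and sox9 lie between -2.51 and -3.90.

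Ratios within a library need no scaling between libraries. The FPKM of amh over that of foxl2 was 0.313, 0.325 and 0.293 in the 3 ovary libraries and 58.3, 17.6 and 26.8 in the 3 testis libraries. The spread of the testis ratios came with a low foxl2 level, which was 0.35 FPKM in testis 1. The ratio of sox9 to foxl2 was 0.0235 to 0.0872 in ovary and 9.14 to 26.5 in testis. Set against wt1, amh stood at 1.15 to 1.18 in ovary and 4.49 to 8.44 in testis, and foxl2 at 3.62 to 3.92 in ovary and 0.145 to 0.254 in testis. The ovary ratios of amh, foxl2 and wt1 to each other varied little, although all 3 genes were lowest in ovary library 2.

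**Figure D3:**
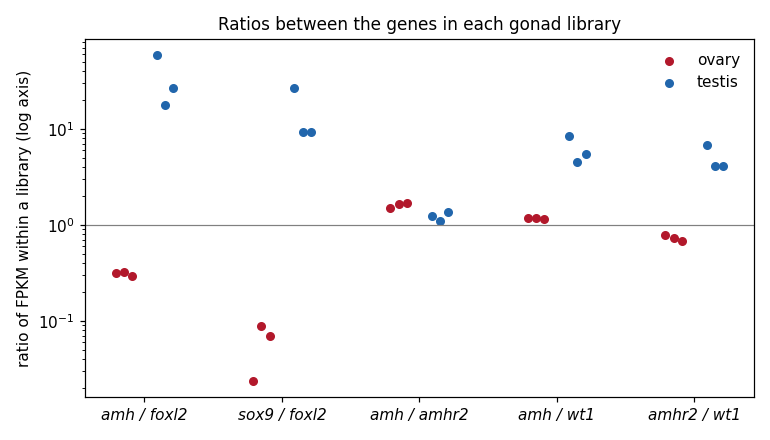
Ratio of the FPKM of 2 genes within each gonad library (log axis), 3 ovary libraries in red and 3 testis libraries in blue, with a line at 1. The amh to foxl2 ratio is 0.293 to 0.325 in ovary and 17.6 to 58.3 in testis, while the amh to amhr2 ratio lies between 1.09 and 1.69 in all 6 libraries.

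In brain, foxl2 and sox9 were both higher in females. These 2 genes passed the filter of 1 FPKM in at least 3 of the 6 libraries, and both were called; the call rate over all genes tested was 20.3%, and 9.36% were called with a higher female level. Female brains had 5.98, 5.72 and 6.59 FPKM of foxl2 and male brains 3.07, 2.78 and 4 FPKM. The sexes did not overlap, as in 37.6% of all genes tested, and the fitted level was 1.79-fold higher in females (log2 difference 0.84, SE 0.19, edgeR adjusted p = 0.00587).

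Female brains had 21.9, 22.39 and 22.98 FPKM of sox9 and male brains 9.55, 13.15 and 16.56 FPKM. The female libraries were close together and all above the male ones, which were spread out (log2 difference 0.73, SE 0.17, 1.66-fold, edgeR adjusted p = 0.0173). The call of sox9 was lost without any one of female brain 1, 2 or 3 or male brain 2, with edgeR adjusted p between 0.0512 and 0.0859. In the fit of all 24 libraries foxl2 lost its call (edgeR adjusted p = 0.212), and with the filter read over all 24 both genes did (adjusted p = 0.306 and 0.0668).

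Glial and neuronal markers were near level between the sexes in brain: 18 genes of radial glia and astrocytes summed to 5530 to 5790 FPKM in females and 5190 to 5620 FPKM in males, and 12 neuronal genes to 1120 to 1260 and 1110 to 1250 FPKM. The 5 hepatocyte genes summed to 2870 to 3380 FPKM in female brains and 1880 to 2110 FPKM in male brains. Only 2 of these 5 were called, both higher in females, and their median log2 difference over all 5, female minus male, was -0.04. The part of these markers in the difference of sox9 and foxl2 was not tested.

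The other genes were near the limit of detection in brain. For amh, female brains had 0.7, 0.78 and 0.81 FPKM and male brains 0.76, 1.57 and 1.01 FPKM. The groups overlapped, and amh did not pass the filter; a fit without the filter, added after the data were seen, gave a log2 difference of -0.57 (SE 0.36, edgeR adjusted p = 0.335), where 15.5% of genes were called. The 3 female brains had 2 counts of wt1 and 0 of amhr2, and the 3 male brains had 3 of each.

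In pituitary, foxl2 and sox9 passed the filter and neither was called with edgeR, while 26.7% of all genes tested were; at an unadjusted p under 0.05 the count was also 0, and DESeq2 called 0. The level of foxl2 was 1.17, 0.59 and 1.2 FPKM in females and 0.75, 1.08 and 1.09 FPKM in males. These groups overlapped, with a fitted difference of 0 on the log2 scale (SE 0.4, edgeR adjusted p = 0.998). For sox9, females had 1.3, 1.29 and 1.32 FPKM and males 1.12, 1.4 and 2.14 FPKM, again overlapping (log2 difference -0.27, SE 0.3, edgeR adjusted p = 0.535).

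The ligand gene amh lay under the filter in pituitary, with 0.28, 0.12 and 0.22 FPKM in females and 0.73, 0.78 and 1.61 FPKM in males. The lowest male library was above the highest female one. Of the genes that passed the filter, 44.2% had groups that did not overlap, in either direction. The fit without the filter, in which 18.5% of genes were called, put amh 4.87-fold higher in males (log2 difference -2.28, SE 0.57, edgeR adjusted p = 0.0115), from 15 counts in females and 78 in males. Without male pituitary 3, which carried the germ cell genes, the log2 difference was -1.88 (edgeR adjusted p = 0.0414). Without both pituitary libraries numbered 3 it was -1.90 and no longer called (edgeR adjusted p = 0.0619).

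The receptor gene was almost undetected in pituitary: amhr2 was at 0 in all 3 female libraries and at 0.05, 0.05 and 0.54 FPKM in males. The highest value was in male pituitary 3, the library with the germ cell and spermatid genes. For wt1 the values ran from 0.05 to 0.18 FPKM in both sexes.

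In liver, only sox9 passed the filter. It had 2.5, 3.23 and 3.09 FPKM in females and 1.12, 1.61 and 2.14 FPKM in males. The sexes did not overlap, as in 26.5% of all genes tested, but the difference was not called with edgeR (log2 0.76, SE 0.21, adjusted p = 0.0687), in an organ where 6.82% of genes were called, 1.88% higher in females. It passed an unadjusted p (0.00583), and DESeq2 called it (adjusted p = 0.0499). Of the bile duct markers, 13 genes summed to 184 to 215 FPKM in female livers and 190 to 223 FPKM in male livers. Only 5 of them were tested in liver, and 0 were called. The same 13 genes summed to more in each other organ, with group means of 433 to 1510 FPKM, so they do not mark bile duct cells alone. Their part in the difference of sox9 was not tested. The other genes were at 0 to 0.36 FPKM in every liver library.

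Whether the sex difference varied among brain, pituitary and liver was tested with a sex by organ term in 18 libraries, since a call in one organ and none in another does not show a difference. With edgeR, 0 of the 3 genes tested were called, against 8.83% of all genes. An unadjusted p under 0.05 was passed by 2 of them, sox9 and amh. The low-value filter admitted amh through male libraries alone, at 1.57 and 1.01 FPKM in male brains 2 and 3 and 1.61 FPKM in male pituitary 3. That pituitary library carried the germ cell genes. The edgeR adjusted p was 0.083 for sox9, 0.191 for amh and 0.586 for foxl2. DESeq2 called sox9 (adjusted p = 0.0302).

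A test added after the data were seen compared the sex difference in gonad with that in brain, in the fit of 24 libraries. The result was read only for sox9 and foxl2, which passed the filter in both organs. It was called for both, and for 69.3% of all genes. For sox9 the direction turned: females were higher in brain and males in gonad, and the gonad difference minus the brain difference was -4.31 on the log2 scale (SE 0.35, edgeR adjusted p = 1.15e-10). For foxl2 females were higher in both organs, by 3.42 more on the log2 scale in gonad (SE 0.56, edgeR adjusted p = 8.18e-06). In this fit the brain difference alone was not called for either gene (edgeR adjusted p = 0.0668 for sox9 and 0.306 for foxl2).

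The order of the organs was read within each sex from one fit of all 24 libraries. In females, 4 of the 5 genes were called higher in ovary than in each other organ, as were 31.3% of all genes tested. In males, 3 of the 5 were called higher in testis than in each other organ, as were 24.5%. The ligand amh, the receptor amhr2 and wt1 did so in both sexes, and foxl2 did so in females. Only gonad libraries reached 1 FPKM for amhr2 and wt1, so both entered this fit through gonad alone. Their calls are thus partly set by the filter. The sexes were compared on this order only for gonad against brain, by the test above for sox9 and foxl2.

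Most genes differed between any pair of organs. Over all genes, 85.9%, 83.1% and 78.2% were called between ovary and female brain, pituitary and liver, and 77.5%, 74.3% and 74.5% between testis and male brain, pituitary and liver. Between pituitary and brain 56.7% were called in females and 58.4% in males, between liver and brain 66.8% and 67.3%, and between liver and pituitary 61.6% and 63.3%. Folds between organs also depend on scaling. The median log2 difference of all genes between female liver and brain was -0.11 with TMM and -2.22 without scaling, and between male gonad and liver 0.43 and 2.73.

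In females amh followed ovary with brain, where its mean was 0.763 ± 0.0569 FPKM (SD, n = 3), then pituitary at 0.207 ± 0.0808 and liver at 0.0733 ± 0.0379. Ovary exceeded brain 5.57-fold (log2 2.48, SE 0.36, edgeR adjusted p = 6.13e-07), and brain exceeded pituitary (log2 difference of pituitary minus brain -1.58, SE 0.49, adjusted p = 0.0084). Liver was not called different from pituitary or from brain (liver minus brain -1.19, edgeR adjusted p = 0.0918), although it was called lower than brain without scaling (-3.28, adjusted p = 8.19e-06) and with limma on log2(FPKM + 1) (-0.72, adjusted p = 0.000281). In males testis exceeded brain 16.8-fold (edgeR adjusted p = 7.8e-11), and brain and pituitary, at 1.11 ± 0.415 and 1.04 ± 0.494 FPKM, were not called different (log2 0.09, SE 0.36), with a sign that turned under other scalings.

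The receptor amhr2 was a gene of the gonad in both sexes. No read was counted for it in female brain or female pituitary, so that ovary, with 126 counts, was at least 50-fold and at least 43.8-fold higher (3 counts set over the group at 0). Testis, with 1132 counts, was at least 85.8-fold higher than male liver, with 0. Against male brain, with 3 counts, the ratio was 312 (95% counting interval 106 to 1510).

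The level of wt1 was likewise highest in gonad. With TMM scaling liver came next, on few counts: 19 in liver and 6 in pituitary of females, 16 and 10 in males. Male liver (0.21, 0.1 and 0.25 FPKM) and male pituitary (0.08, 0.17 and 0.18 FPKM) overlapped, and this order was not recomputed without scaling. Ovary exceeded female liver 3.83-fold (log2 1.94, edgeR adjusted p = 0.000956) and testis exceeded male liver 4.1-fold (log2 2.04, adjusted p = 0.000829). Without scaling these log2 differences were 3.11 and 4.39, both still called. Brain held 2 counts in females and 3 in males, for ratios of ovary to brain of 123 (95% counting interval 33.7 to 1020) and of testis to brain of 80.7 (27.3 to 393).

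The order of foxl2 differed between the sexes. In females ovary stood at 7.11 ± 2.03 and brain at 6.1 ± 0.447 FPKM, and the fit called ovary higher (log2 1.17, SE 0.36, edgeR adjusted p = 0.00474). That call was lost without scaling (log2 0.23, adjusted p = 0.565), with limma on log2(FPKM + 1) (0.16, adjusted p = 0.421) and without ovary library 1 (0.74, adjusted p = 0.098). In males brain was highest, 4.77-fold above testis (edgeR adjusted p = 3.73e-05), and testis and pituitary, at 0.827 ± 0.431 and 0.973 ± 0.193 FPKM, were not called different (adjusted p = 0.194). Liver had 8 counts in females and 4 in males.

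Brain held the highest level of sox9 in both sexes. Ovary was lowest in females, at 0.387 ± 0.159 FPKM, 32.2-fold under brain (edgeR adjusted p = 1.91e-14) and 2.26-fold under pituitary (adjusted p = 0.00122). In males testis stood at 9.6 ± 1.15 and brain at 13.1 ± 3.51 FPKM, and their libraries overlapped. The fit called brain higher (log2 difference of gonad minus brain -0.70, SE 0.21, edgeR adjusted p = 0.0043), which was lost without scaling (-0.45, adjusted p = 0.079) and without male brain 3 (-0.48, adjusted p = 0.0591). Testis and male liver were not called different under TMM (log2 0.21, SE 0.23, edgeR adjusted p = 0.423) but were without scaling (2.56, adjusted p = 7.5e-10), and the FPKM were 9.6 and 1.62.

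The second entry described as a SOX-9 gene, LOC103382384 (Sox-9-A-like), falls outside the naming rule and was noted after its values were seen. It had 7.96, 7.23 and 6.49 FPKM in female brain and 4.89, 5.63 and 5.8 FPKM in male brain, where it was not called (edgeR adjusted p = 0.0999). Testis had 0.12, 0.48 and 0.33 FPKM and ovary 0, 0.04 and 0. It stood under 1 FPKM in all 6 gonad libraries, while sox9 did so in the 3 ovary libraries. In pituitary it was 2.3-fold higher in males (log2 difference -1.20, SE 0.37, edgeR adjusted p = 0.0326), at 4.27, 2.11 and 2.09 against 1.33, 0.9 and 1.53 FPKM.

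The 2 SOX-8 entries, relatives of sox9 within the SOX family, went opposite ways in gonad. The level of sox8 was 0.41, 0.13 and 0.18 FPKM in ovary and 2.29, 4.31 and 3.18 FPKM in testis (log2 difference -2.83, SE 0.44, edgeR adjusted p = 9.25e-05). For sox8a it was 2.51, 3.57 and 3.21 FPKM in ovary and 0.29, 0.64 and 0.86 FPKM in testis (log2 difference 3.16, SE 0.4, edgeR adjusted p = 1.7e-05). Neither pair of groups overlapped, and each gene passed the filter only through the sex where it was higher.

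**Figure D4:**
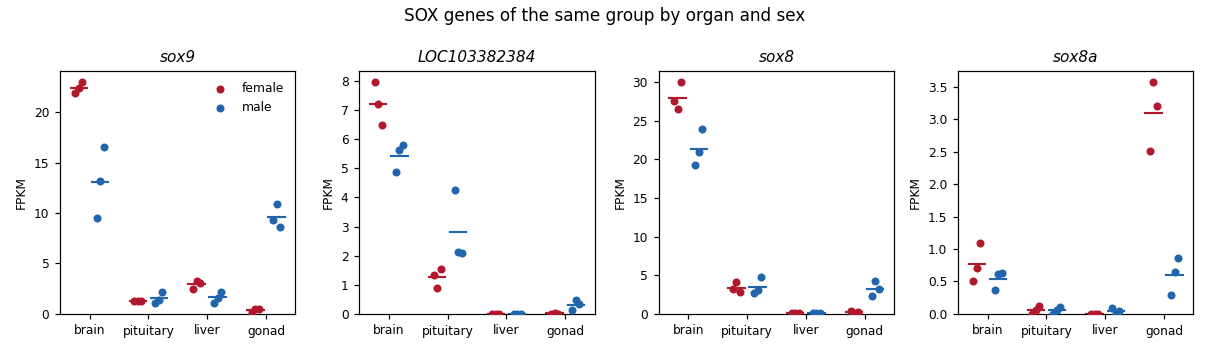
FPKM (linear axes starting at 0, a separate scale in each panel) of sox9, LOC103382384 (Sox-9-A-like), sox8 and sox8a by organ, female in red and male in blue, 1 point per library and a line at the mean. In gonad sox9 and sox8 are higher in testis, sox8a is higher in ovary and LOC103382384 stays under 1 FPKM.

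Across the other SOX genes, 9 of the 11 tested in gonad were called (81.8%, against 84.2% of all genes), 4 higher in ovary and 5 in testis, with a median log2 difference of -0.39 against -0.24 over all genes. The largest ovary difference was in sox11b (761 ± 122 FPKM in ovary, 15 ± 2.9 in testis, SD, n = 3; 88.2-fold, edgeR adjusted p = 1.27e-09), followed by LOC103391903, a Sox-19a-like gene (26.8 ± 5.15 and 1.53 ± 0.561; 30.6-fold). On the testis side sox21 had 2.34 ± 1.12 FPKM, against 0.05 ± 0.0458 in ovary (21.9-fold, adjusted p = 0.000108). In brain 4 of 20 SOX genes tested were called (20%, against 20.3% of all genes in either direction). All 4 were higher in females, where 9.36% of all genes were called higher. They were sox3, sox4, sox8 and LOC103391903, each by 1.24 to 1.28-fold.

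Of 19 genes of AMH and BMP signalling tested in gonad, 14 were called, 6 higher in ovary and 8 in testis (73.7%, median log2 -0.25, against 84.2% and -0.24 for all genes). The genes called higher in testis included SMADs, which carry the signal inward, and receptors: smad9 had 16.1 ± 3.69 FPKM in testis and 0.42 ± 0.0436 in ovary (SD, n = 3; log2 difference -4.46, SE 0.3, edgeR adjusted p = 9.77e-08), and LOC103397887, a smad4-like gene, 9.91 ± 2.1 and 0.78 ± 0.161. The type 1 receptor bmpr1b had 3.27 ± 0.0503 FPKM in testis and 0.297 ± 0.2 in ovary, and the type 2 receptor bmpr2 14.9 ± 4.03 and 2.44 ± 0.33, both called. Of these, smad9, LOC103397887 and bmpr1b passed the filter through testis alone.

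The 4 ID genes of the list, which BMP signals induce in many vertebrate cells and whose products block other transcription factors, were all called higher in ovary with TMM scaling; other scalings were not run for them, and for id4 the mean FPKM was slightly lower in ovary. The level of id1 was 646.1, 564.42 and 685.85 FPKM in ovary and 18.58, 31.24 and 28.73 FPKM in testis (log2 difference 5.40, SE 0.21, 42.3-fold, edgeR adjusted p = 1.82e-09). The level of id2 was 18.6 ± 1.53 FPKM in ovary and 1.32 ± 0.448 in testis (24.3-fold, adjusted p = 6.85e-08). For id3 it was 13.9 ± 2.19 and 4.56 ± 0.907 FPKM (adjusted p = 1.62e-06), and for id4, whose FPKM overlapped between the sexes, 9.76 ± 1.5 and 10.1 ± 3.5 (log2 difference 0.75, adjusted p = 0.0108). The inhibitory gene smad7 was also higher in ovary (51 ± 8.91 against 15.3 ± 1.92 FPKM), while smad6, another inhibitory member, was higher in testis (5.7 ± 1.32 against 0.517 ± 0.107). Like smad9, smad6 passed the filter through testis alone.

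**Figure D5:**
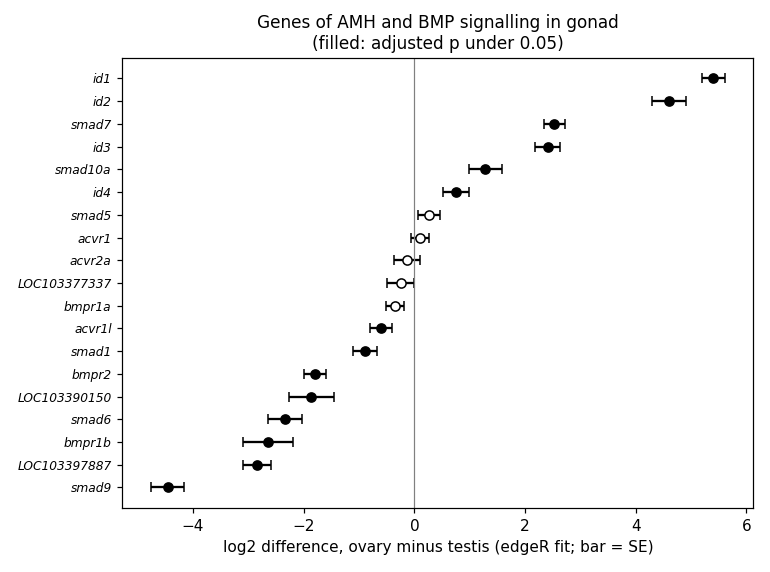
Fitted log2 difference, ovary minus testis, with its SE, of the 19 genes of AMH and BMP signalling that passed the filter in gonad; filled points passed the adjusted threshold of 0.05. The ends of the range are id1 at 5.40 and smad9 at -4.46.

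Outside the gonad, 5 of 19 genes of the same list were called in brain (26.3%, against 20.3% of all genes), 2 higher in females and 3 in males. In pituitary 4 of 20 were called (20%, against 26.7% of all genes), 1 higher in females and 3 in males. In liver 4 of 17 were called, all 4 higher in males (23.5%, against 4.94% of all genes in liver called higher in males). The liver genes were smad1 (1.87 ± 0.208 FPKM in males, 0.827 ± 0.196 in females, SD, n = 3, edgeR adjusted p = 0.0189), smad7, id1 and id3. The gene id2 was higher in females in brain (33.4 ± 5.08 against 18.4 ± 3.11 FPKM) and in pituitary (30.3 ± 4.76 against 18.8 ± 3.05), and was called in each. It was the only gene of the list called higher in females in pituitary.

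Of 16 genes of the male pathway, 9 were tested in gonad and all 9 were called, 6 higher in testis and 3 in ovary. Over all genes 84.2% were called, 45.4% higher in testis and 38.8% in ovary. The filter can admit a gene through 1 sex alone, as it did for dmrt1, hsd11b2, sox8 and sox8a. For such genes a call is partly set by the filter. The largest testis differences were in dmrt1, the Z-linked sex gene of this species, and hsd11b2, an enzyme of 11-oxygenated androgen and cortisol metabolism. The level of dmrt1 was 49.4 ± 11.8 FPKM in testis and 0.05 ± 0.0436 in ovary (SD, n = 3, edgeR adjusted p = 3.9e-09), and that of hsd11b2 was 25.5 ± 9.57 and 0.263 ± 0.0611. The Sertoli junction gene cldn11a had 70.8 ± 5.44 FPKM in testis and 1.36 ± 0.464 in ovary. The ovary side held sox8a, and fgf20b and fgfr3, whose FPKM overlapped between the sexes.

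Of 11 genes of the female pathway tested in gonad, 8 were called (72.7%, against 84.2% of all genes), 6 higher in ovary and 2 in testis. The oocyte factors gdf9 (158 ± 11.8 FPKM in ovary, 0.313 ± 0.0751 in testis, SD, n = 3, edgeR adjusted p = 8.16e-11) and bmp15 (312 ± 38 and 2.29 ± 1.43) led on the ovary side. For gdf9 only ovary libraries reached 1 FPKM, so its call is partly set by the filter. On the testis side were rspo1, a WNT activator with ovarian roles in mammals (1.17 ± 0.145 FPKM in testis, 0.06 ± 0.03 in ovary), and inha, the inhibin alpha chain (25.4 ± 2.12 and 6.78 ± 3.28). The gene listed as aromatase-like, LOC103378914, had 7.4, 1.67 and 4.05 FPKM in ovary and 6.92, 8.04 and 6.24 FPKM in testis and was not called (edgeR adjusted p = 0.776). Another entry of the list, LOC103380488, is described as aromatase, and its values are not given here.

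Of 7 early gonad genes tested, 4 were called (57.1%, against 84.2% of all genes), all higher in testis. The leading ones were LOC103393976, an nr5a2-like gene (9.24 ± 2.19 FPKM in testis, 0.493 ± 0.292 in ovary, SD, n = 3), and gata4 (6.73 ± 2 and 0.67 ± 0.137), with edgeR adjusted p of 7.36e-06 and 9.97e-06. Both passed the filter through testis alone. Of 7 gonadotropin and steroid receptor genes, 3 were called (42.9%), all higher in testis: the gene with the symbol fshr, which the table describes as a luteinizing hormone receptor-like product (15.6 ± 2.82 and 1.11 ± 0.274), LOC103387286, with the same description (5.33 ± 0.87 and 0.2 ± 0.01), and esr2a (29.1 ± 7.08 and 1.47 ± 0.386).

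A pair of further genes outside the naming rule were noted after their values were seen. The entry described as steroidogenic factor 1, LOC103397689, had 0.52, 0.15 and 0.37 FPKM in ovary and 4.14, 3.25 and 5.44 FPKM in testis (log2 difference -2.74, SE 0.41, edgeR adjusted p = 6.66e-05). The entry with the symbol foxl2l, described as forkhead box E3-like, had 1.55, 0.64 and 0.35 FPKM in ovary and 15.24, 19.55 and 13.86 FPKM in testis (log2 difference -3.33, SE 0.44, edgeR adjusted p = 3.75e-05), the reverse of foxl2.

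Markers of the cells around the supporting cells moved with the sex of the gonad too. The 7 genes of Leydig and theca cells summed to 66.9 to 107 FPKM in testis and 5.48 to 5.84 FPKM in ovary, all 7 were called higher in testis, and none was at 0 in either group. Over all genes tested in gonad, 84.2% were called and 45.4% were called higher in testis. The 4 germ cell genes summed to 1010 to 1070 FPKM in testis and 173 to 204 FPKM in ovary. All 4 were called, 3 higher in testis and 1 in ovary. The 13 genes of cartilage and connective tissue summed to 118 to 155 FPKM in testis and 19 to 28.1 FPKM in ovary, and 5 of the 6 tested were called, all higher in testis. Hepatocyte genes summed to 2170 FPKM in ovary library 2, against 60.8 and 79.2 FPKM in the other ovaries, and that library was lowest of the 3 for amh, amhr2, foxl2 and wt1. The part of these markers in the differences above was not tested.

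The 5 genes took different places among all genes of a library. In testis amh ranked at the 76.7th to 80.8th percentile of genes above 0 and amhr2 at the 72.1st to 75.1st, and in ovary they ranked at the 41.5th to 52.6th and the 34.7th to 46.9th. In female brain sox9 ranked at the 81.9th to 82.8th percentile and in ovary at the 18.8th to 27.4th. Over the 24 libraries, the Pearson correlation of log2(FPKM + 1) was 0.97 between amh and amhr2, 0.93 between amhr2 and wt1, 0.88 between amh and wt1, and 0.14 between amh and foxl2. These values describe libraries that share organs and sexes, and carry no test.

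By the same measure, the entries most like each gene were taken from 18094 with a described product. The closest to amh were wnt16, kif20b, kntc1, LOC103395772 (a cilia and flagella protein) and e2f2, with correlations of 0.98 to 0.987. The closest to amhr2 were cdk21, pde6c, fyb2, fcgbp and lin28b, at 0.994 to 0.996, and 254 entries exceeded 0.95. All 5 stood higher in testis than in ovary and brain, as in cdk21, with mean levels of 108 FPKM in testis, 3.56 in ovary, 0.0167 in female brain and 0.153 in male brain. The closest to wt1 were LOC103384992 (a solute carrier), tdrd7, LOC103383735 (a stromal interaction molecule), tdrd5 and inha, at 0.974 to 0.982.

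The closest to foxl2 were sox4, ckb, LOC103379256, LOC103383836 (SPARC-like 1) and homer2, at 0.959 to 0.962. All 5 were high in ovary and in brain of both sexes and lower in testis, as in sox4 with mean levels of 17.5 FPKM in ovary, 16 in female brain, 12.3 in male brain and 2.92 in testis. The closest to sox9 were gatm, LOC103379334 (an amino acid transporter), lrig1, LOC103381411 and an entry described as a spectrin beta chain, at 0.947 to 0.962, and 2 entries exceeded 0.95. The level of gatm, an enzyme of creatine synthesis, was 110 FPKM in female brain, 75.3 in male brain, 28.6 in testis and 1.2 in ovary.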

How the data were processed

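Per the file headers, the authors deposited an estimated count and an FPKM value for each of 22773 entries in 24 libraries. TopHat2 (version 2.0.3.12) and Bowtie2 are named in the submitters' processing notes; the quantifier and genome build are not given in the sources used here. Of the deposited counts, 97.1 to 98.4% were whole per library; all were rounded. Single-gene counts depend on how reads shared by near-identical copies were assigned, which is not given.

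The members and gene lists were chosen with earlier results of these data known. Groups came from the labels. R 4.3.3, edgeR 4.0.16 (quasi-likelihood, TMM, robust), limma 3.58.1 and DESeq2 1.42.0 were used. A gene entered a fit where 3 or more of its libraries reached 1 FPKM. Some list genes therefore entered the gonad fit through 1 sex alone, among them also sox21, rspo1, LOC103387286 and LOC103397689. For those genes the call is partly set by the filter. The SE is the log2 difference over the square root of the F statistic. Each organ had its own fit of 6 libraries; organ pairs came from all 24 and the sex by organ term from 18. The design allowed counts or FPKM, and counts were present. Counting intervals are exact binomial and, like the floor of 3 counts, cover counting error only. Named list genes are the called ones with the largest differences and no overlap (up to 2 per direction); others were named after their values were seen. The fit was tested on simulated counts for the sexes in brain, for ovary against female brain and for the sex by organ term. Ovary against testis was not simulated. In leave-one-out fits the gene filter of the full set was kept, a choice made after fits that read the filter again had been seen; both are reported. Alternatives were another scaling, other filters, DESeq2, limma on log2(FPKM + 1) or log2(FPKM + 0.1), a replicate block and one fit of all libraries. Same-numbered female and male pools of an organ did not deviate together in most pairs (correlation -0.203 to 0.219). The numbers were therefore not used as pairs between the sexes. Liver was mixed, at 0.219 and 0.203 for pools 1 and 2 and -0.0526 for pool 3. In liver 4 of 6 libraries correlated best with their own number. Same-numbered female brain and pituitary pools deviated together (0.169 to 0.214 in all 3 pairs). This pairing comes from the data and not from the labels. The block changed no recomputed call between female brain and pituitary. In males the same pairs of organs gave 0.0331, 0.246 and 0.102.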

Additional observations from a re-analysis of the deposited data

Results flagged for a closer look

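A pair of results stood out because the sex difference of a gene differed between organs, by the test added after the data were seen. For sox9, the sex difference in gonad minus that in brain was -4.31 on the log2 scale, with females higher in brain and males higher in gonad. For foxl2 it was 3.42, with females higher in both. In the fit of this test, the brain difference alone was not called for either gene. Over the alternatives run, the value of sox9 stayed between -5.50 and -3.70 and that of foxl2 between 1.41 and 3.76, and both were called in all 56. The call covers 69.3% of all genes tested. Groups of 3 libraries are too small for the test of single outlying libraries, which was not run.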

How the results depend on the processing

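Over 2840 recomputed values of 60 single-gene results, 2760 kept direction and side of the threshold, 23 lost a call, 31 gained one and 26 turned sign. All sign turns were in differences that had not been called. For foxl2 in pituitary (0 on the log2 scale) the difference was 0.02 without scaling, 0.02 without the filter and 0.00 with the filter over 24 libraries, and -0.16 to 0.26 on leaving out a library (0.26, 0.09 and 0.07 where the filter was read again without female 2, male 2 or male 3). For sox9 there it was -0.46 to 0.00 on leaving out a library. For wt1 it was -0.42 to 0.38 in liver without the filter, and in gonad 0.08 with the filter over 24 libraries and -0.43 to 0.13 on leaving out a library. Where the filter was read again it was 0.21 without ovary 2, 0.02 without ovary 3 and -0.95, then called, without testis 1. For amh in male pituitary minus male brain it was -0.01 with median-ratio scaling and with DESeq2, -0.09 without scaling, -0.06 and -0.12 with limma on log2(FPKM + 1) and log2(FPKM + 0.1), and -0.35 to 0.36 on leaving out a library (-0.11 without male brain 1 and -0.35 without male pituitary 3 where the filter was read again).

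Of the 5 genes, those called in brain were 2; they were 1 in the fit of 24 libraries, 0 there with the filter over 24, and 1 to 2 on leaving out a library. In pituitary 0 were called; 1 was without the filter (amh) and 2 (amh and amhr2) with the filter over 24, and the range on leaving out a library was 0 to 0. In liver 0 were called; 1 (sox9) was with DESeq2, in the fit of 24 libraries with either filter, and with the replicate block. In gonad the count was 3 to 5 under every alternative run, but not always of the same genes. Where the filter was read again without any one testis library, sox9 was no longer tested. Without testis 1, wt1 was then called (edgeR adjusted p = 0.0256). With the filter at 5 FPKM, foxl2 and wt1 were not tested. Wherever they were tested, amh, amhr2, sox9 and foxl2 kept their calls. For the sex by organ term 0 were called; 1 was with DESeq2 or the replicate block, 2 with limma on log2(FPKM + 1), and 0 to 1 on leaving out a library.

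Genes called in all fell from 3318 to 1122 (1044 with the filter over 24) in brain in the fit of 24 libraries. In liver they were 721, against 1715 and 1831 in those fits and 318 with the filter at 5 FPKM. Leaving out a library gave 1940 to 3153 in brain, 2403 to 4376 in pituitary (4086 with all) and 198 to 744 in liver. The cause was not tested.

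Between the sexes of one organ the replicate number gave no steady pairing: 3 of 12 same-numbered pairs had a correlation over 0.1. Of 24 libraries 7 correlated best with their own number, 4 of them in liver. Between organs of females 7 of 18 pairs were over 0.1, and 7 of these lay among the 9 pairs of brain, pituitary and liver. Organ comparisons treat libraries as independent; a replicate block within sex changed no call of the organ comparisons recomputed. With the replicate block 3062, 3406, 951 and 13407 genes were called in brain, pituitary, liver and gonad; sox9 in liver reached an edgeR adjusted p of 0.0453 and its sex by organ term 0.0068.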
